A study of Mus musculus with 5 samples.

Results

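Genes of the motile cilium were followed across astrocyte libraries of the basolateral amygdala. A deposited symbol counted as a member if it began with Cfap, Dnah, Rsph or Tekt followed by a digit, or was Foxj1, Ccdc153, Tmem212, Enkur or Dynlrb2. This gave 57 members among 35976 genes: 25 Cfap genes, 15 Dnah genes, 7 Rsph genes, 5 Tekt genes and the 5 single genes. All mice carried the alleles Ccr2::CreERT2/+ and DTR/+, so that tamoxifen activates Cre in cells that express Ccr2, and a receptor for diphtheria toxin, and all received tamoxifen and 18 days of tube restraint, with fear conditioning and extinction after it. The saline group had 2 libraries, called saline 1 and saline 2, and the group given DTx (diphtheria toxin) had 3, called DTx 5A, 6A and 7A. Cells were taken from papain-digested amygdala with magnetic beads against ACSA-2, an antigen carried by the astrocyte protein Atp1b2. The labels give no age, no sex and no promoter for the receptor allele, and do not say whether each library is 1 animal. Libraries are named throughout by their labels.

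Motile cilia beat because dynein motors slide a ring of paired microtubules around a central pair. Outer and inner dynein arms give the force, radial spokes and the central apparatus regulate it, and tektins and other inner proteins stiffen the doublets. In the brain such cilia stand in tufts on ependymal cells, which line the ventricles and move cerebrospinal fluid, and Foxj1 is the transcription factor known for switching on their genes. Astrocytes carry a single primary cilium that does not beat, although several of these genes are also active outside multiciliated cells.

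Library depth ranged from 15961220 to 23720299 counts, with 20409 to 21800 genes detected per library. Astrocyte markers were high in each library, with 13 markers summing to 27940 to 28072 CPM (counts scaled to library size, with TMM factors) for saline and 27092 to 30494 for DTx. Oligodendrocyte markers were also high, with 10 genes at 60227 to 92808 CPM for saline and 42977 to 90697 for DTx. Some markers went against or coincided with the labels. Ccr2, the gene that marks the cells the toxin is aimed at, had 0 counts in saline and 62 in DTx, 54 of them in 5A, so it was not lower in the libraries labelled DTx. Xist had 6615 counts in saline and 3 in DTx, and the Y-linked gene Ddx3y had 5 and 6539 counts, so sex-chromosome state and treatment label cannot be told apart in any comparison below.

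Summed motile cilia counts differed far more between libraries of the same group than between the groups. Summed over all 57 members, the level was 860.0 CPM in saline 1, 261.0 in saline 2, 662.8 in DTx 5A, 344.7 in 6A and 270.0 in 7A. Saline averaged 561 ± 424 CPM (SD, n = 2) and DTx 426 ± 209 CPM (SD, n = 3), a ratio of 0.760. Saline held the highest and the lowest library, and DTx lay between them. In bulk samples such as these, fewer ciliated cells and less RNA per cell cannot be told apart.

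**Figure D1:**
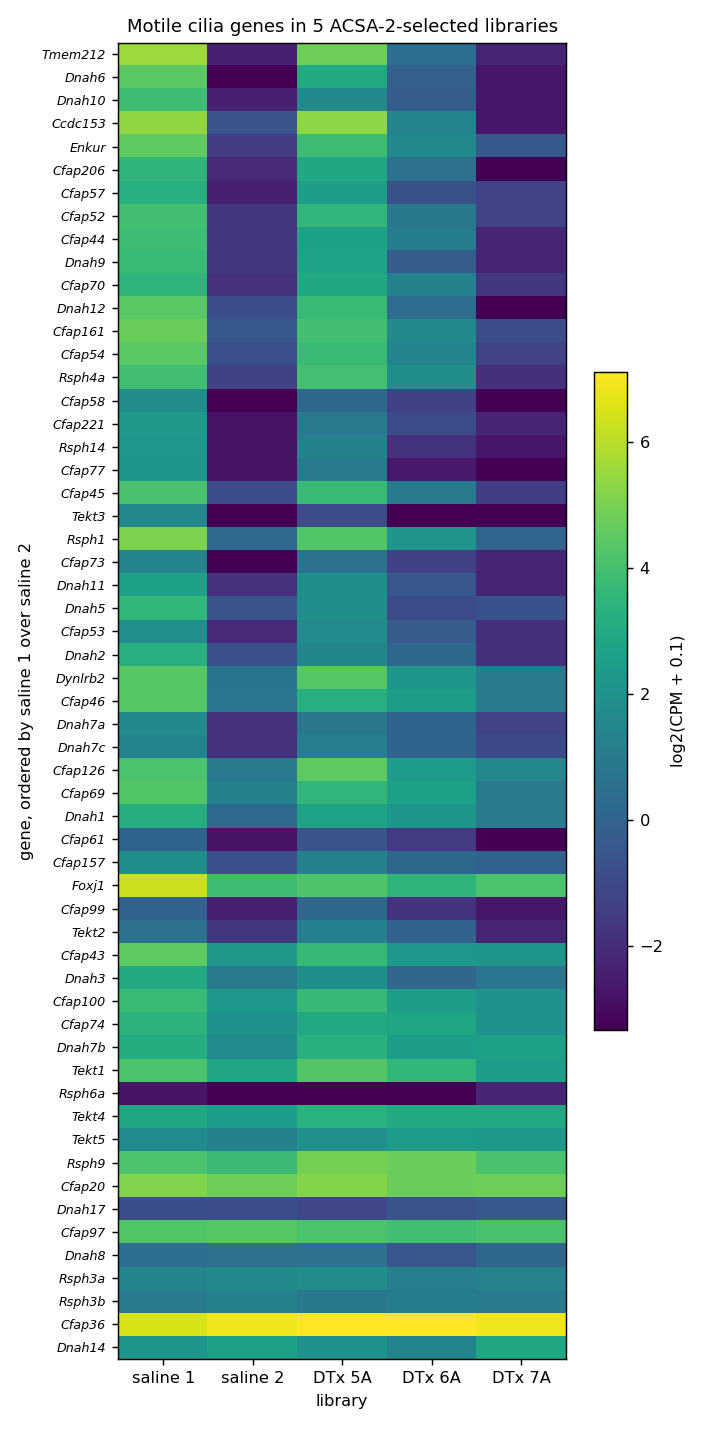
Heat map of log2(CPM + 0.1) for the 57 members (rows) in 5 libraries (columns), ordered from the highest to the lowest ratio of saline 1 to saline 2. Most rows are bright in saline 1 and DTx 5A and dark in saline 2 and DTx 7A. The rows at the bottom, such as Cfap36 and Rsph9, vary less across the 5 libraries.

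Ccdc153, a coiled-coil protein enriched in ependymal cells (GRCm38 chromosome 9, 44240677 to 44247306), stood at 41.7 CPM in saline 1 and 0.538 CPM in saline 2. Its levels were 39.4, 2.43 and 0.0570 CPM in DTx 5A, 6A and 7A. Thus saline 1 and DTx 5A were high, 6A was low and the others were near 0, so the groups overlapped. The log2 fold change of DTx over saline was -0.59 ± 2.07 (SE, edgeR adjusted p = 0.961 over all genes).

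Tmem212, a membrane protein widely used as an ependymal marker (chromosome 3, 27866065 to 27896391), had the same libraries high. It had 1033 counts in saline 1 (47.7 CPM), 2 counts in saline 2 (0.0897 CPM), 534 counts in 5A (28.2 CPM), 21 counts in 6A (1.31 CPM) and 2 counts in 7A (0.114 CPM). The ratio of saline 1 to saline 2 was 532 (95% exact interval 147 to 4398, counting error only). The order of the libraries was that of Ccdc153 except that 7A lay marginally above saline 2, each with 2 counts. Its log2 fold change was -1.26 ± 2.18 (SE, edgeR adjusted p = 0.922).

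Enkur, an inner protein of the doublet microtubules (chromosome 2, 21180731 to 21205365), had 23.5 CPM in saline 1 and 0.269 in saline 2, with 14.4 in 5A, 2.86 in 6A and 0.684 in 7A. Dynlrb2, a roadblock-type dynein light chain (chromosome 8, 116505015 to 116515915), was at 21.4 CPM in saline 1 and 1.57 in saline 2, against 20.6 in 5A, 4.54 in 6A and 1.82 in 7A. For both genes saline 2 was the lowest library and saline 1 the highest. Their log2 fold changes were -0.99 ± 1.71 and -0.35 ± 1.33 (SE, edgeR adjusted p = 0.923 and 0.963).

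Foxj1 (chromosome 11, 116330704 to 116335499) did not follow the other 4 single genes. It was at 79.4 CPM in saline 1, 14.6 in saline 2, 18.8 in DTx 5A, 11.3 in 6A and 17.9 in 7A. Saline 1 stood apart and the other libraries, 5A included, lay close together. The ratio of saline 1 to saline 2 was 5.43 (95% exact interval 4.82 to 6.13), and that of 5A to 7A was 1.05 (0.899 to 1.22). For Ccdc153 that second ratio was 691 (124 to 27340), with 1 count in 7A. Per kilobase of exon, Foxj1 stood at 1.48 times the level of Ccdc153 in saline 1, 21.1 times in saline 2, 0.370 times in 5A, 3.60 times in 6A and 244 times in 7A, where Ccdc153 had 1 count. The log2 fold change of Foxj1 was -1.55 ± 0.691 (SE, edgeR adjusted p = 0.797). Without saline 1 it was 0.13 and without saline 2 it was -2.31 (adjusted p = 0.961 and 0.403), so its direction turned on that library.

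**Figure D2:**
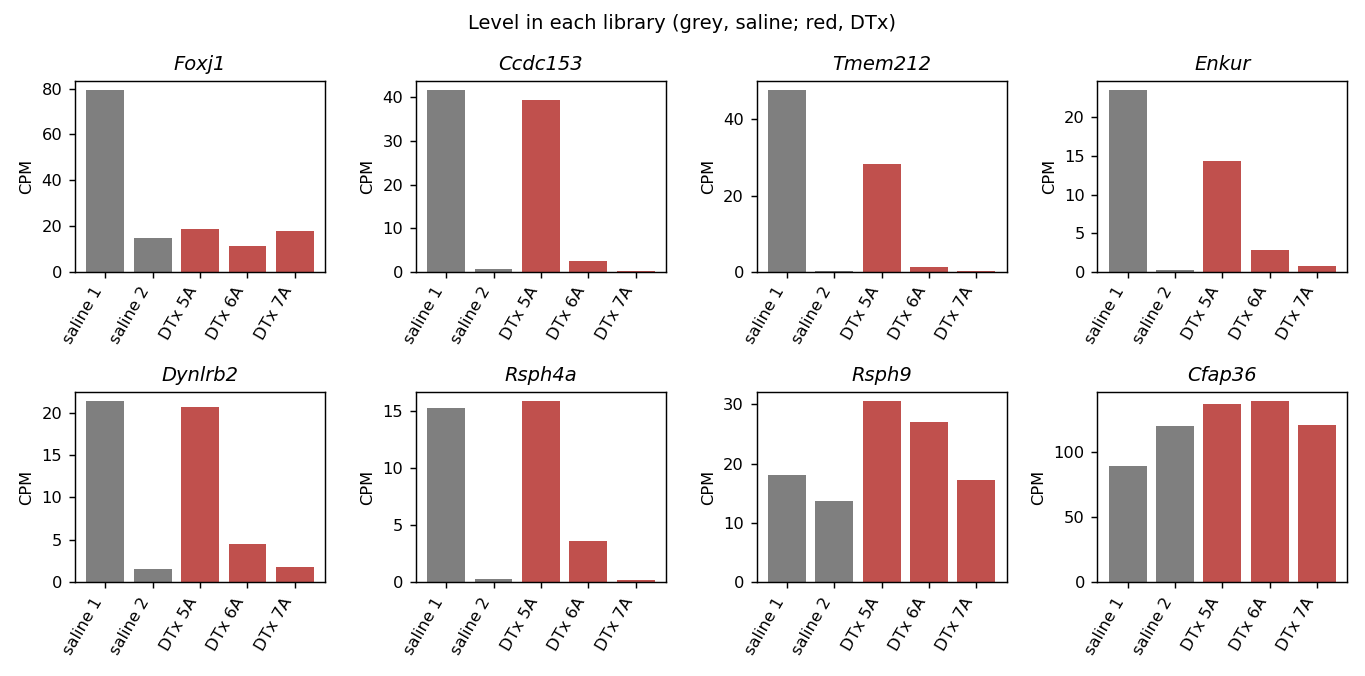
Bars of the CPM of 8 members in each library, each panel with its own axis from 0. Ccdc153, Tmem212, Enkur, Dynlrb2 and Rsph4a are high in saline 1 and DTx 5A, and Foxj1 in saline 1 alone. Rsph9 and Cfap36 vary less, from 13.7 to 30.6 and from 89.2 to 139 CPM.

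RFX factors, which act with Foxj1 on cilium genes, bind a paired motif called the X-box. Promoters of some members that shared the library order are shown, and none of members without it. RefSeq promoters (GRCm38.p6) were found for 48 members, with 55 start sites. Foxj1 was not among them. The 250 bases before the start are printed 5′ to 3′ on the strand of the gene, with an X-box match in capitals. Ccdc153 lies at chr9:44240427-44240676 (plus strand), Dynlrb2 at chr8:116504765-116505014 (plus), Dnah6 at chr6:73221632-73221881 (minus) and Tmem212 at chr3:27896369-27896618 (minus).
Ccdc153: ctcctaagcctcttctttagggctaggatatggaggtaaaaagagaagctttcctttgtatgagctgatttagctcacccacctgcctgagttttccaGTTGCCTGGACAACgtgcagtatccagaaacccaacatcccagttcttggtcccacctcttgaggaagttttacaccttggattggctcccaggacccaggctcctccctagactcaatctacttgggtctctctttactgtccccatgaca
Dynlrb2: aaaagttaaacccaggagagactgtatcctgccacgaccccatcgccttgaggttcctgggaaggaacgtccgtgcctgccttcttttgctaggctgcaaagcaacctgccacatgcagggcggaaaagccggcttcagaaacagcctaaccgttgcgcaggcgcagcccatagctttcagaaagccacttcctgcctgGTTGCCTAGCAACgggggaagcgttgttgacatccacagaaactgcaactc
Dnah6: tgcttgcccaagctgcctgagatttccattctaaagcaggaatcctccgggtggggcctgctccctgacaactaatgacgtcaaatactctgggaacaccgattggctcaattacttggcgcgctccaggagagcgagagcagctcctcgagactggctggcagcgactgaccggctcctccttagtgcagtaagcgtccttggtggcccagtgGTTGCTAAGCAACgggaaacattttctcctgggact
Tmem212: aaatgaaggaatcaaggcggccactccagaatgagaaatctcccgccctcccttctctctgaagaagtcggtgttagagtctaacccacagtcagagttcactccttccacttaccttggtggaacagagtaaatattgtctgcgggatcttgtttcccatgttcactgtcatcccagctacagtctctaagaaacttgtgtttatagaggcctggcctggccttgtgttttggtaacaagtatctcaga
The first 3 hold a match to the degenerate X-box and Tmem212 holds none in this window.

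Motifs were counted over 300-base windows, from 250 bases before to 50 after the start, on both strands. The RFX core GTTGCC was in 20 of 55 member promoters (36.4%) and in 12.5% of all 32851 promoters. The forkhead core TGTTTAC, of the family to which Foxj1 belongs, was in 4 of 55 (7.27%) and in 3.65% of all. A strict paired site, GTTNCC followed after 1 to 3 bases by GGNAAC, was in 0 of 55 and in 0.776% of all. The degenerate X-box, chosen after these promoters had been seen, allows other pyrimidines and purines at its inner bases and overlaps the RFX core in some promoters, Ccdc153 and Dynlrb2 among them. It was in 18 of 55 (32.7%) and in 2.89% of all. These matches are letters in a window and were put to no test.

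Members fell into classes by the ratio of the saline libraries to each other, a split made after the values had been seen and used as a description. In 41 members, called steep here, saline 1 was at least 4-fold above saline 2. In 11 members, called flat, the saline libraries lay within 2-fold, 4 lay between, and Rsph6a, a spoke-head protein of sperm, had 1 count in saline 1 and 2 in 7A and was below the floor of 3 counts. Dnah3, at 4.22-fold, was just inside the steep class and Cfap100, at 2.86-fold, just outside it. The steep members summed to 626.9 and 38.0 CPM in saline 1 and 2, and to 366.1, 84.5 and 41.5 CPM in DTx 5A, 6A and 7A. Foxj1, steep by this ratio, made up 14.6 CPM of the saline 2 sum and 17.9 CPM of the 7A sum. Of these 41 genes 32 were under 1 CPM in saline 2 and 33 in 7A, while 39 reached 1 CPM in saline 1 and 39 in 5A. Flat members summed to 183 CPM in saline 1 and 204 in saline 2, against 246 in 5A, 230 in 6A and 209 in 7A. Among genes with a promoter, the RFX core was in 11 of 33 steep, 3 of 10 flat and 4 of 4 genes between. The degenerate X-box was in 13, 2 and 1 of them. A link between motif and class was not tested.

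Of the 57 members, 55 passed the low-count filter, and Tekt3 and Rsph6a did not. Saline 1 was at least 4-fold above saline 2 in 40 of these 55, compared with 3.73% of the 15532 genes tested. In 39 of the 55, saline 1 and 5A both lay above 6A, and 6A above saline 2 and 7A. That order, chosen after it had been seen, held in 6.32% of all genes. Intervals on these ratios cover counting error, and the cause of the difference between libraries was not tested.

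Dynein heavy chains, the motor subunits, were mostly steep. Dnah6, an inner-arm chain (chromosome 6, 73017603 to 73222227), had 475 counts in saline 1, 0 in saline 2, 150 in 5A, 13 in 6A and 1 in 7A. It was at least 163-fold higher in saline 1 than in saline 2, taking 3 counts as the limit in that library. Dnah12, another inner-arm chain (chromosome 14, 26691554 to 26892719), was at 21.8 CPM in saline 1 and 0.448 in saline 2, against 13.003 in 5A, 1.24 in 6A and 0 in 7A. Again saline 1 and 5A were high and 7A, with no count, allowed at most 3. Dnah3, also of the inner arms, was at 8.13 CPM in saline 1 and 1.93 in saline 2, against 3.59 in 5A, 0.995 in 6A and 1.59 in 7A, a narrower spread with its lowest value in 6A. Over the 9 inner-arm chains counts summed to 99.2 CPM in saline 1 and 7.71 in saline 2, against 50.1 in 5A, 16.9 in 6A and 10.6 in 7A. The outer-arm chains Dnah5, Dnah9 and Dnah11 were steep as well, whereas Dnah8 and Dnah17, outer-arm chains known from sperm, were flat and low. Dnah8 ranged from 0.622 to 1.43 CPM and Dnah17 from 0.370 to 0.684 CPM.

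Dnah7b had its levels closer together, at 8.77 CPM in saline 1 and 3.27 in saline 2, against 9.88 in 5A, 5.72 in 6A and 6.15 in 7A. Its near-identical copies Dnah7a and Dnah7c can share reads with it, so the values of all 3 are uncertain. Dnah14 had its highest level in 7A (7.58 CPM) and its lowest in 6A (2.49 CPM), with 4.39 and 6.14 CPM in saline. Of 15 Dnah genes tested, 13 had a fitted fold change below 0 and 2 above 0, and the median was -1.16 (log2).

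Radial spoke genes were split between both patterns. Rsph1, a spoke-head protein (chromosome 17, 31255019 to 31277296), was at 33.3 CPM in saline 1 and 1.08 in saline 2, against 19.4 in 5A, 4.23 in 6A and 0.968 in 7A. Rsph4a, another spoke-head protein (chromosome 10, 33905111 to 33916021), was at 15.2 CPM in saline 1 and 0.314 in saline 2, against 15.9 in 5A, 3.61 in 6A and 0.171 in 7A. Here 5A was close to saline 1, and the groups overlapped. The locus of Rsph1 overlaps Ubash3a, so its reads may include some of that gene.

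Rsph9, also of the spoke head (chromosome 17, 46122038 to 46144242), did not share this pattern. It stood at 18.1 CPM in saline 1 and 13.7 in saline 2, against 30.6 in 5A, 27.0 in 6A and 17.2 in 7A, so 7A lay below saline 1. It had the smallest p of the members, with a log2 fold change of 0.65 ± 0.276 (SE, edgeR adjusted p = 0.795). Its locus overlaps Mrps18a, and without stated strand use their reads cannot be told apart. Rsph3a and Rsph3b, near-identical copies whose counts are uncertain, stayed between 1.74 and 3.33 CPM in every library.

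Tektins, filament proteins of the doublet wall, had fitted fold changes above 0 in 4 of 4 tested, with a median of 0.40. Over all genes 49.7% were below 0, and no tektin passed the threshold. The log2 fold changes of Tekt1 and Tekt2 were 0.03 ± 0.607 and 0.35 ± 1.16 (SE) with all libraries. They were -0.48 and -0.44 without saline 2, and -0.49 and -0.76 without 5A. Tekt1 was at 17.6 CPM in saline 1 and 7.22 in saline 2, against 20.2 in 5A, 12.1 in 6A and 5.64 in 7A, so the library order of the steep genes was kept over a smaller range. Tekt2 was low, at 1.43 CPM in saline 1 and 0.224 in saline 2, against 2.17 in 5A, 0.871 in 6A and 0.114 in 7A. Tekt4 and Tekt5, best known from sperm flagella, were flat. Tekt4 was at 7.48 CPM in saline 1 and 5.25 in saline 2, against 9.99 in 5A, 8.33 in 6A and 7.75 in 7A, and Tekt5 at 3.23 and 2.29 CPM and at 3.70, 5.22 and 4.73 CPM. In both, all DTx libraries lay above both saline libraries, as in 12.1% of all genes. Their log2 fold changes were 0.45 ± 0.254 and 0.72 ± 0.322 (SE, edgeR adjusted p = 0.803 and 0.797).

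Among Cfap genes, 21 of 25 kept the library order described above. All 6 genes of the central apparatus (Cfap46, Cfap54, Cfap69, Cfap70, Cfap74 and Cfap221) did so, and they summed to 88.5 CPM in saline 1 and 8.61 in saline 2, against 51.9 in 5A, 23.9 in 6A and 8.37 in 7A. Cfap126, an inner protein of the doublets, was at 17.9 CPM in saline 1 and 1.84 in saline 2, against 23.1 in 5A, 5.22 in 6A and 2.73 in 7A, with 5A above saline 1. The Cfap genes of highest mean CPM, Cfap36, Cfap20 and Cfap97, were flat. Cfap36, a partner of ARL3-type GTPases (chromosome 11, 29218918 to 29247317), was at 89.2 CPM in saline 1 and 120.1 in saline 2, against 137 in 5A, 139 in 6A and 120.4 in 7A. The locus overlaps Ppp4r3b, whose reads cannot be told apart without strand. The groups did not overlap, with DTx higher as in 12.1% of all genes, although 7A lay barely above saline 2. The log2 fold change of Cfap36 was 0.34 ± 0.177 (SE, edgeR adjusted p = 0.797). Cfap20, a conserved axonemal protein, ranged from 26.7 to 35.9 CPM. Cfap97 was at 19.4 CPM in saline 1 and 21.2 in saline 2, against 17.8 in 5A, 15.6 in 6A and 17.4 in 7A. It was the only member tested with all DTx libraries below saline (8.99% of all genes). Its log2 fold change was -0.26 ± 0.150 (SE, edgeR adjusted p = 0.803).

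Per kilobase of exon and averaged over the 5 libraries, Cfap36 was the highest member named here at 44.2 CPM per kb. Tmem212 followed at 21.6, Dynlrb2 at 18.0, Rsph9 at 13.3, Foxj1 at 10.8, Rsph1 at 8.60 and Ccdc153 at 8.26 CPM per kb. Dynein heavy chains were lower, with Dnah12 at 0.608 and Dnah6 at 0.464 CPM per kb. These means hide the spread, since in saline 1 Tmem212 stood at 66.6, Dynlrb2 at 38.4 and Cfap36 at 32.5 CPM per kb. The ranges over libraries of neighbours in this order overlapped.

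No member passed the threshold between DTx and saline. With edgeR's quasi-likelihood test 0 of 55 were called, where 0.0322% of all genes were called (0.0258% with DTx higher and 0.00644% with DTx lower). No member had an unadjusted p under 0.05, against 6.28% of all genes. DESeq2, the edgeR likelihood ratio test and limma-voom called 0 members too, against 0.715%, 0.599% and 0.0322% of all genes, with 1, 2 and 0 members at an unadjusted p under 0.05. With no low-count filter 0 of 57 were called (0.0355% of all genes). The fitted fold change was below 0 in 46 members and above 0 in 9, with a median of -0.73, while 49.7% of all genes were below 0 and their median was 0.00. Groups did not overlap with DTx higher in 3 members (12.1% of all genes) and with DTx lower in 1 (8.99% of all genes). Standard errors were 0.150 to 0.536 in the flat members and 0.691 to 2.18 in the steep ones. The classes were set by the difference between the saline libraries, which enters the standard error, so this contrast follows largely from the split.

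The direction of the members as a whole rested on saline 1. Without it 50 of 55 members had a fold change above 0 (52.9% of all genes did) and the median was 2.47, with the lone saline library assumed to vary like the DTx group. Without saline 2 the median was -1.66, with 49 of 56 below 0. It was -1.59 without DTx 5A, -0.58 without 6A and -0.29 without 7A. No member passed the adjusted threshold in any of these fits (0.0846% of all genes did without 7A), and the smallest adjusted p was 0.147, for Rsph9 without 7A. Limma-voom gave a median of -0.17, with 36 of 55 members below 0.

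**Figure D3:**
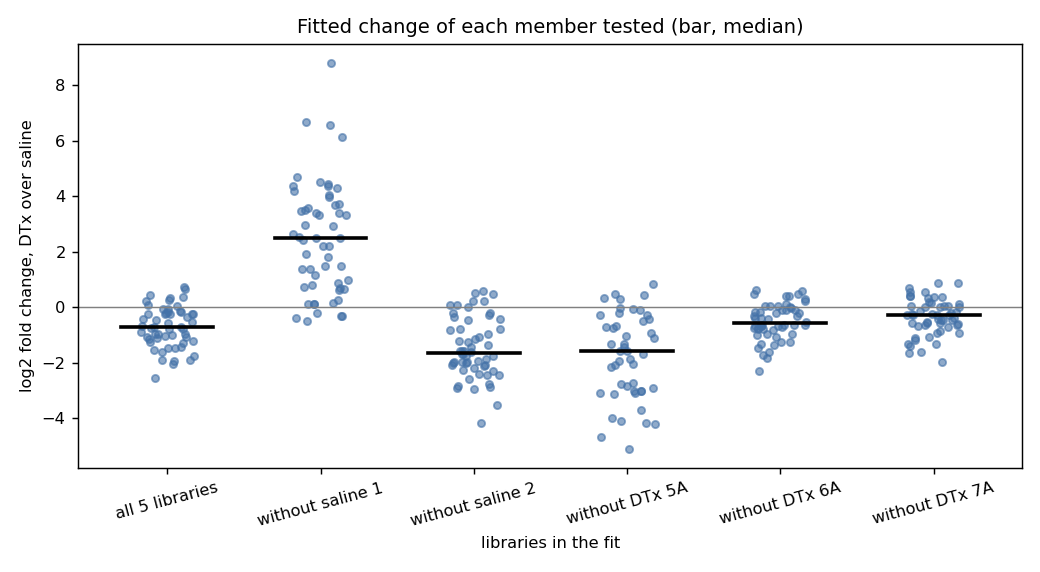
Fitted log2 fold change of DTx over saline for each member tested (points) with the median (bar), for all 5 libraries and with each left out. The median is -0.73 with all libraries, 2.47 without saline 1 and -1.66 without saline 2.

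Other genes of the pathway, from lists that share no gene with the members, mostly had the same order of libraries. Over 5 lists (the multiciliation programme, other outer-arm chains and docking factors, dynein assembly factors, nexin-linked regulators with the ruler proteins, and the central pair), 42 of 47 genes present were tested. The order held in 33 of them, and 0 passed the edgeR threshold in either direction, with 9 above 0 and 33 below 0 and 0 at an unadjusted p under 0.05. Hydin, a giant protein of the central pair, was at 19.5 CPM in saline 1 and 0.0897 in saline 2, against 6.92 in 5A, 0.622 in 6A and 0.171 in 7A. Lrrc48, a nexin-dynein regulator, was at 27.2 CPM in saline 1 and 2.73 in saline 2, against 17.4 in 5A, 5.22 in 6A and 2.45 in 7A. Armc4, a docking factor of the outer arm, was at 14.7 CPM in saline 1 and 0.0448 in saline 2, against 6.61 in 5A, 0.560 in 6A and 0.114 in 7A.

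Upstream regulators were mixed. Myb, which acts early in multiciliated cells, was at 7.25 CPM in saline 1 and 0.179 in saline 2, against 3.01 in 5A, 0.187 in 6A and 0.171 in 7A. Rfx3 and Rfx4, X-box-binding factors that astrocytes also express, lay between 24.7 and 35.5 CPM and between 54.0 and 95.03 CPM without the library order. Rfx2 had that order, at 11.8 CPM in saline 1 and 4.30 in saline 2, against 8.30 in 5A, 5.66 in 6A and 5.24 in 7A. Of 8 genes of the multiciliation programme tested, 4 had it. Gmnc, Mcidas and Ccno, which start the formation of multiple cilia, were each at 0.369 CPM or less in every library.

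Genes shared with primary cilia mostly lacked the library order of the motile ones. Intraflagellar transport genes, which carry cargo along any cilium, summed to 755 to 818 CPM in saline and 713 to 877 CPM in DTx, and 3 of 22 had the library order. Primary cilium genes summed to 493 to 576 CPM and 507 to 702 CPM, and 0 of 17 had it. Over all genes 6.32% had the order. Even so, the lowest library was saline 2 or 7A in 14 of 17 primary cilium genes and 10 of 22 intraflagellar transport genes. The same held in 44 of 55 members and in 5325 of the 15532 genes tested. In both lists 0 genes passed the edgeR threshold, with 0 at an unadjusted p under 0.05, and medians were -0.07 and 0.06.

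Other markers of ependymal cells mostly had the same order. Of 26 such genes 23 had the library order, and they summed to 544.4 CPM in saline 1 and 192.4 in saline 2, against 449 in 5A, 213 in 6A and 245 in 7A. Cdhr4, a cadherin family member, was at 55.4 CPM in saline 1 and 0.0448 in saline 2, against 17.2 in 5A, 0.933 in 6A and 0.0570 in 7A. Rarres2, the chemerin precursor, was at 43.9 and 12.4 CPM and at 44.8, 24.0 and 13.2 CPM. Tppp3, which myelinating cells also express, was the most abundant of the list and had its highest level in 7A, at 175 CPM. None of the 26 passed the edgeR threshold, and 0 had an unadjusted p under 0.05.

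Neighbouring cell types of the ventricle wall mostly had other patterns. Among 12 markers of choroid plexus epithelium, which also bears cilia, levels were uneven. Ttr, its abundant transthyretin gene, stood at 0.114 to 0.693 CPM, and Prr32 and Tmem72 had 0 counts in every library. Otx2, a transcription factor of that epithelium, was higher, with 19.7 CPM in saline 1, 13.8 in saline 2, 9.94 in 5A, 4.91 in 6A and 10.1 in 7A. Folr1, a folate receptor, had 3.23 CPM in saline 1, 0 in saline 2, 1.37 in 5A, 0.0622 in 6A and 0.114 in 7A. Steap1 had 2.22 CPM in saline 1 and 0.359 in saline 2, with 0.124 to 0.529 in DTx. The sum of the 12 markers, 24.0 to 37.4 CPM in saline and 26.1 to 99.4 CPM in DTx, came in 5A and 6A mostly from Clic6, at 67.8 and 92.7 CPM. Of 6 choroid plexus markers tested, 0 had the library order, 2 (Folr1 and Steap1) were at least 4-fold higher in saline 1 than in saline 2, and 0 passed the edgeR threshold, with 2 at an unadjusted p under 0.05. Tanycyte markers, of the ventricular cells of the hypothalamus, summed to 126 to 173 CPM in saline and 85.4 to 215 CPM in DTx, and 0 of 10 had the order. Of these, 3 were at least 4-fold higher in saline 1 than in saline 2. Among them were Rax, with 12 against 3 counts, and Gpr50, with 2 against 0. None of the 10 markers passed the edgeR threshold, with 3 at an unadjusted p under 0.05 (6.28% of all genes). In 3, all DTx libraries lay above saline (12.1% of all genes), and in 1, Dio2, all lay below it (8.99% of all genes). Scn7a was at 5.73 CPM in saline 1 and 0.359 in saline 2, against 34.7 in 5A, 0.373 in 6A and 0.854 in 7A. Rax and Gpr50, which mark tanycytes, were at 17.1 and 17.4 CPM in 5A and at 5.91 and 6.72 CPM in 6A. In saline 1 they were at 0.554 and 0.0923 CPM, so the 2 libraries richest in ciliary genes differed in them. Of the 10 tanycyte markers, 7 had a fitted fold change above 0 and 3 below 0. Dio2, the most abundant, was at 93.0 CPM in saline 1 and 97.8 in saline 2, against 51.8 in 5A, 28.1 in 6A and 80.9 in 7A. What part these cells had in the members' levels was not tested.

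**Figure D4:**
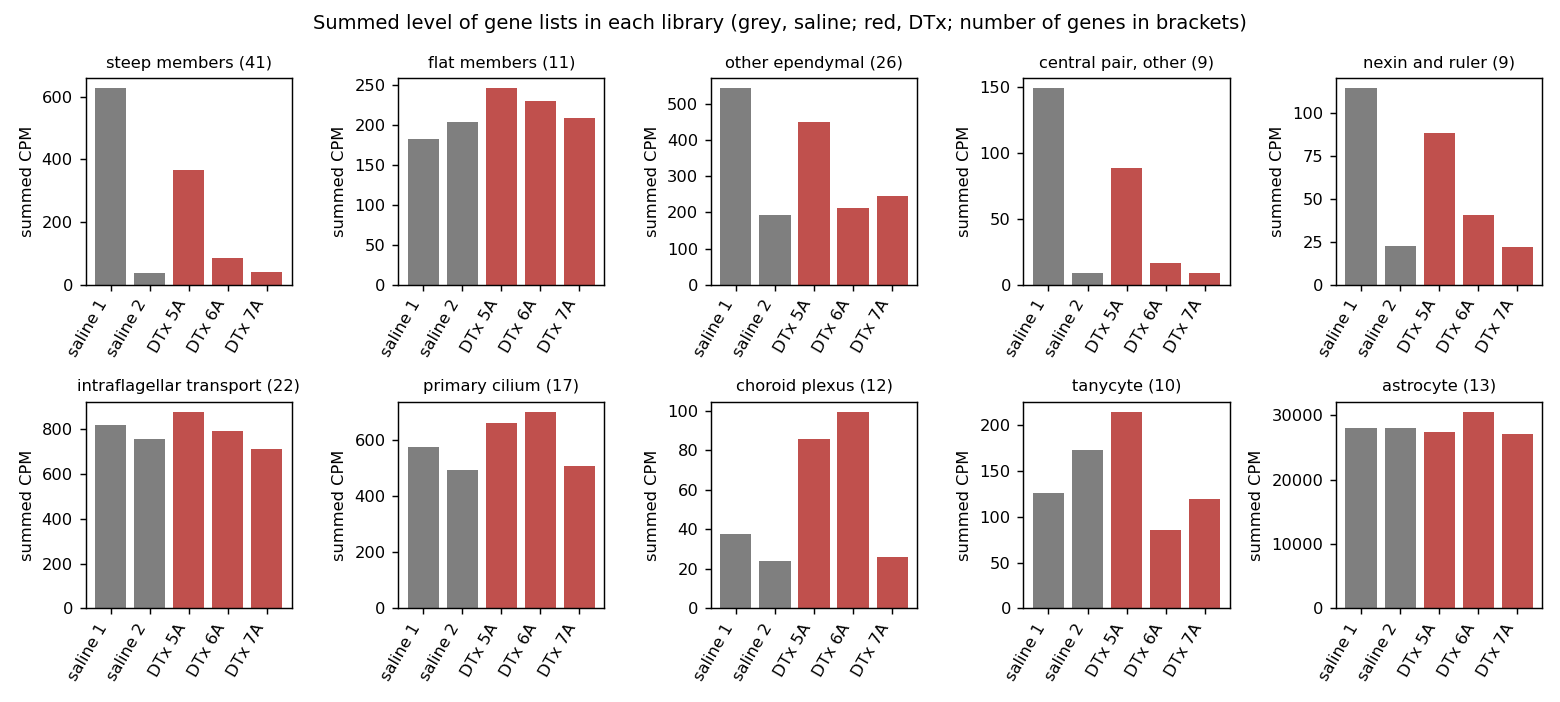
Summed CPM per library of the steep and flat members and of 8 marker lists, each panel with its own axis from 0. Steep members, other ependymal genes, central pair and nexin genes are highest in saline 1 and DTx 5A. Intraflagellar transport, primary cilium and astrocyte lists differ less between libraries.

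The order of the libraries on the leading principal component of all 15532 genes was also that of the steep members. Its scores were 54.0 in saline 1, 40.44 in 5A, -7.19 in 6A, -41.29 in 7A and -45.95 in saline 2, and it carried 45.4% of the variance. Members made up 19 of the 100 genes with the highest loadings. Without the members and the other cilium lists, over 15370 genes, it still carried 40.0% and kept the same order, with 47.62 in saline 1 and -42.15 in saline 2. Markers of several other cell types also differed between libraries: microglial genes summed to 133 to 289 CPM for saline and 284 to 461 for DTx, and oligodendrocyte markers were highest in saline 2 and 7A. Their part in the members' levels was not tested.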

How the data were processed

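RNA sequencing libraries were made from 5 ng of total RNA of ACSA-2-selected cells, per the labels' protocols. The deposited table holds unnormalized counts for each gene and library. The submitters' processing notes name the build GRCm38 and the tools STAR 2.7.5c, featureCounts 2.0.1, edgeR 3.42.4, fastp 0.23.2, FastQC 0.11.9 and MultiQC 1.11, without their roles. For settings, annotation and strand use: not given in the sources used here. Saline columns were matched by Ctrl and their number, and DTx columns to the group alone. The table has 1 other column of sample values, left out throughout. All pairs of libraries differed by more than sampling noise (chi-square per degree of freedom of 14.2 or more), and p-values measure the spread between libraries, which may be technical.

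Counts were fitted with edgeR 4.0.16 (TMM, filterByExpr with a minimum count of 10, robust quasi-likelihood F test, Benjamini-Hochberg adjustment over 15532 genes, threshold 0.05), with DESeq2 1.42.0 and limma 3.58.1 as alternatives. Other alternatives were further scalings and filters and each library left out. Levels are TMM-scaled CPM, per kilobase over GENCODE M21 exon unions. Intervals are exact (Clopper-Pearson) at 95%. Principal components used log2 CPM with a prior count of 2. The test was tested on simulated data. RefSeq (GRCm38.p6) gave positions for all 57 members. Several other named loci, those of Tmem212, Tekt1, Tekt5 and most named Dnah genes among them, overlap predicted genes whose reads could be split with theirs.

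Members and lists were chosen with earlier results of these data known. The rule for names took the 5 single genes, the 4 members of highest mean CPM in each family, any member past the threshold and up to 3 with the smallest p in each direction. In other lists it took up to 3 with the smallest p and up to 3 with the highest mean. Myb, Folr1, Ttr, Prr32, Tmem72, Scn7a, Gmnc, Mcidas, Ccno, the remaining central apparatus, Cfap, Dnah, Rsph and Tekt genes, Ccr2, Xist and Ddx3y were named after their values were seen. The rule for sequences named Foxj1 and members with the strict paired site and gave none, so the printed promoters were also chosen afterwards.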

Additional observations from a re-analysis of the deposited data

How the results depend on the processing

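The absence of called members held under every alternative run, namely scaling by RLE, by upper quartile or by total, no low-count filter or one on CPM, DESeq2, limma-voom, the edgeR likelihood ratio test and each library left out. Over all genes 5 were called, and 9 with no low-count filter, 111 with DESeq2 and 93 with the likelihood ratio test. With a library left out 5 to 13 genes were called, the highest without DTx 7A. The median log2 fold change of the members was -1.66 to 2.47 with a library left out, above 0 only without saline 1, and -0.76 to -0.17 under the other alternatives. The ratio of summed member levels, DTx over saline, was 0.495 to 1.63 with a library left out (1.63 without saline 1), and 0.753 to 0.771 under the other scalings. Of 286 fold changes of 22 named members under the alternatives, 255 kept their sign and 0 passed the threshold. Without saline 2, 7 members had an unadjusted p under 0.05. With the degenerate X-box, added after the data were seen, 32.7% of member promoters held a paired site in place of 0%, because it accepts more letters. On the coding strand alone the RFX core was in 25.5% and the forkhead core in 3.64%. No paired analysis was possible because no label holds the numbers of the DTx columns. Counts of the steep genes were few in saline 2 and 7A, where 32 and 33 of 41 were under 1 CPM. By total counts saline 2 was the deepest library, and 7A was deeper than 5A. The part of depth or library composition in these low counts was not tested. Fold changes of the steep genes had standard errors of 0.691 to 2.18 (log2). That no member was called does not show that the groups were alike.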
